A study of Homo sapiens with 15 samples.

Results

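The genes described here are 10 components of the transforming growth factor beta (TGF-beta) pathway: the ligands TGFB1 and TGFB2, the receptors TGFBR1, TGFBR2 and TGFBR3, the signal carriers SMAD2, SMAD3 and SMAD4, the inhibitor SMAD7, and the induced matrix protein TGFBI. They were taken by gene symbol, and all 10 were among the 12995 genes of both expression tables. Messenger RNA was measured by 3′ end sequencing in 15 libraries of human cell lines, in 5 groups of 3. OKF6, a normal oral epithelial line labelled wild type, was grown in K-SFM, a serum-free keratinocyte medium. SCC25 and SCC15 are oral squamous carcinoma lines, both transduced with Cas9 and with a guide RNA targeting YBX1 that doxycycline switches on. SCC25 was kept in K-SFM and SCC15 in DMEM with fetal bovine serum. The +YBX1 groups are these engineered cells without doxycycline, which the labels also call wild type, and the -YBX1 groups received 1 ug/mL doxycycline for 3 days. Cells double positive for the reporters of both vectors were sorted and expanded, so each line is a pool and not a clone. No vector is given for OKF6, so line, vectors and, for SCC15, medium cannot be told apart in the comparisons below. No label says that replicates were separate cultures, and the p-values measure the spread between these libraries, which may be technical.

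TGF-beta ligands are secreted in a latent form and, once released, bind the receptor TGFBR2, which recruits and activates TGFBR1. TGFBR3 (betaglycan) is a co-receptor that presents ligand, TGFB2 above all. The activated receptor phosphorylates SMAD2 and SMAD3, which join SMAD4 and act on target genes in the nucleus, while SMAD7 blocks the receptor in a feedback loop. In squamous epithelium the pathway is known for growth arrest, and in carcinoma also for matrix production, migration and epithelial-mesenchymal transition. YBX1, the protein whose gene the guide targets, binds DNA at Y boxes, which contain an inverted CCAAT sequence, and also binds messenger RNA.

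Upstream sequences are shown for the 3 members that stood farthest below SCC25 in SCC15 (TGFBI, TGFB2 and TGFBR2). TGFBR3 is added as the 1 member that passed the test below as higher in SCC15 than in OKF6. Each run is the 250 bases before the RefSeq start site nearest to the canonical GENCODE start, read 5′ to 3′ on the strand of the gene (RefSeq, GRCh38.p14). Capitals mark matches, on either strand, to 5 motifs, and for each the share of all 35116 RefSeq windows of 300 bases that hold it is given. The Y box was searched as CTGATTGG and is in 3.97% of windows. Its inverted core CCAAT is in 34.6%, and every match to the Y box is also a match to this core. The binding element of SMAD proteins was searched as CAGACA, which 16.9% of windows hold. The AP-1 site TGACTCA is in 4.95% and the TATA box TATAAA in 11.5% of all windows.
TGFB2 (chr1:218345086-218345335, plus strand): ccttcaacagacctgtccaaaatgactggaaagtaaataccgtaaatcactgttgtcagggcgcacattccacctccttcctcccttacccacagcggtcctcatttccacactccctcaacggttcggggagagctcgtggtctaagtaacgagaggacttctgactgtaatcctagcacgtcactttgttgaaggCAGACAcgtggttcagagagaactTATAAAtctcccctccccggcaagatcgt
TGFBR2 (chr3:30606351-30606600, plus strand): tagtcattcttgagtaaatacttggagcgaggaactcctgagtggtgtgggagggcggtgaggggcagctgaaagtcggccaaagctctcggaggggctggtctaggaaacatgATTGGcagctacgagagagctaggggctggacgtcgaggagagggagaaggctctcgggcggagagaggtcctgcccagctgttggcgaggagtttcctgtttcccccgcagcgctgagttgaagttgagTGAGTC
TGFBI (chr5:136028738-136028987, plus strand): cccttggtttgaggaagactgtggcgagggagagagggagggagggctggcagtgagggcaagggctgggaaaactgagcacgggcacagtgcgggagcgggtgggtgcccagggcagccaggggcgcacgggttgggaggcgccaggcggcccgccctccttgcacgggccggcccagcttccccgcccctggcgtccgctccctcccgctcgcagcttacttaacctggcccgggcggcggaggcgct
TGFBR3 (chr1:91886152-91886401, minus strand): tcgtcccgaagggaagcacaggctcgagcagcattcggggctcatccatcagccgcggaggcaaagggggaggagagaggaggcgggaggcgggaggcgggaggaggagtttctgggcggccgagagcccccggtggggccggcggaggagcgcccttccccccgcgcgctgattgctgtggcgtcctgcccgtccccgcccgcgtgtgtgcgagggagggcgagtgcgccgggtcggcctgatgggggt
The TGFB2 window held CAGACA at position -53 and TATAAA at -29, counted back from the start site. TGFBR2 held an inverted CCAAT at -136 and an inverted TGACTCA at -6, whose last base is the start site itself and lies past the printed run. Neither the TGFBI nor the TGFBR3 window held any of the 5 motifs. Among the other members, TGFBR1 had CCAAT at -54 and inverted at -150, and SMAD4 had it at -234. None of the 10 windows, which run 50 bases past the start, held CTGATTGG. The matches are a description of sequence and no binding was measured here.

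Counted reads lay between 4075290 and 6118501 per library. Levels are given as log2 CPM, where CPM are reads scaled to a common library total. A single read adds between 0.138 and 0.226 CPM, and the floor of 3 reads used below is at most 0.677 CPM. The shallowest library, OKF6 replicate 2, had 0 reads for both TGFB2 and SMAD7. The epithelial markers set the lines apart: KRT5, KRT14, KRT17, KRT6A, CDH1, EPCAM, TP63 and DSP summed to 24601 to 34499 CPM in OKF6 and 9113 to 20309 in SCC25 +YBX1, but to 91.4 to 124 in SCC15 +YBX1. SCC15 is labelled a squamous carcinoma line, yet TP63 had at most 1 read in any of its 6 libraries, and DSP was the marker that remained, at 513 to 608 reads in SCC15 +YBX1. Of 9 fibroblast markers only COL1A1, LUM and VIM were in the tables, and summed to 326 to 342 CPM in SCC15 +YBX1 against 700 to 1209 in SCC25 +YBX1 and 114 to 142 in OKF6. The low epithelial markers move with every difference of SCC15 given below, and their part in it was not tested. In RNA from whole cultures, fewer cells of a type and less RNA per cell cannot be told apart. YBX1 itself fell with doxycycline, from 5.11, 5.56 and 6.00 to 3.36, 3.71 and 3.13 log2 CPM in SCC15 and from 6.74, 6.31 and 6.62 to 5.26, 4.70 and 3.65 in SCC25. Groups did not overlap in either line, a 4.45-fold and a 4.03-fold difference, although the adjusted p was 0.326 and 0.290 over all genes (limma). Reads from copies of YBX1 elsewhere in the genome could not be separated in these counts.

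The lines were first compared without doxycycline, to see how the pathway differs between them. YBX1 itself differed here, at 6.76, 8.15 and 8.37 log2 CPM in OKF6. It was 4.61-fold lower in SCC15 (limma, adjusted p = 0.000707) and 2.31-fold lower in SCC25 (0.0375) than in OKF6. Its part in the differences below was not tested. Against OKF6, 7 of the 10 members differed in SCC15: TGFBR3 was higher, and TGFBR1, TGFBR2, TGFBI, SMAD2, SMAD3 and SMAD4 were lower (limma, Benjamini-Hochberg adjusted p under 0.05 over all genes). Of all genes, 26.9% were higher and 23.4% lower in this comparison. SCC25 differed from OKF6 in 5 members, with TGFB2 and TGFBR3 higher and TGFBR1, SMAD2 and SMAD4 lower, where 18.9% of all genes were higher and 11.3% lower. Between the tumour lines, 6 members were lower in SCC15 (TGFB2, TGFBR1, TGFBR2, TGFBI, SMAD2 and SMAD3) and 0 were higher, against 23.6% and 20.0% of all genes. The median log2 difference of the members was -1.62 for SCC15 against OKF6, -0.17 for SCC25 against OKF6 and -0.99 for SCC15 against SCC25, beside 0.10, 0.13 and -0.01 over all genes. With TGFB2 in SCC15 set to the floor of 3 reads, the median for SCC15 against OKF6 was -1.36. These 3 comparisons share their libraries and are not independent of each other. Setting the library medians equal moved the median of all genes from 0.10 to 0.26 for SCC15 against OKF6 and from -0.01 to 0.14 for SCC15 against SCC25, and no member changed direction in a line comparison under it or under quantile normalization.

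**Figure D1:**
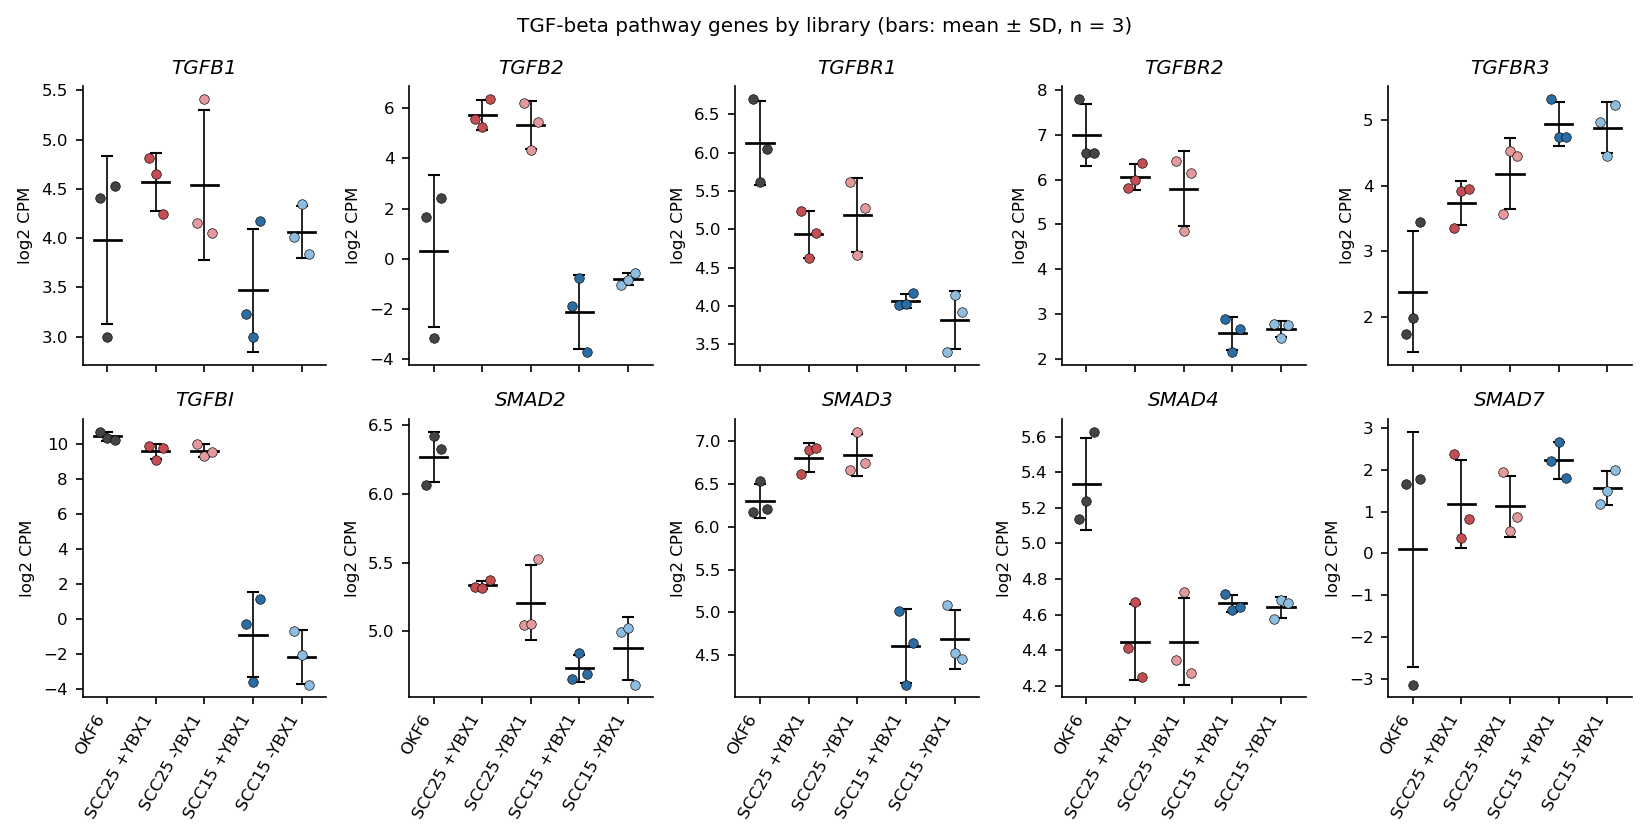
Level of each member in log2 CPM (vertical axis, scaled per gene) in the 15 libraries by group; points are libraries, bars the mean and SD of 3. TGFBI and TGFBR2 in SCC15 sit far under the other lines with and without YBX1, and the -YBX1 points overlap with the +YBX1 points of the same line.

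The ligands went apart in SCC25. TGFB2 (chromosome 1, 218345336 to 218444619, plus strand, 7 exons; its upstream run above carries the TATAAA) stood at 5.56, 5.23 and 6.37 log2 CPM in SCC25 +YBX1, at 1.66, -3.15 and 2.41 in OKF6, and at -1.87, -0.76 and -3.70 in SCC15 +YBX1. Its reads numbered 190 to 396 in SCC25, 16, 0 and 31 in OKF6 and 1, 3 and 0 in SCC15. SCC25 was above every library of the other lines, while OKF6 and SCC15 overlapped. The difference of SCC25 from OKF6 was 5.41 ± 1.28 (log2, SE; adjusted p = 0.00936) and fell to 3.68 without OKF6 replicate 2, the library with 0 reads, where it was still called. Against SCC25, TGFB2 was at least 96.3-fold lower in SCC15, taking 3 reads per library as the floor. Against OKF6 no least fold is given for TGFB2, because OKF6 replicate 2 also had 0 reads and the groups overlapped. The log2 difference of SCC15 from OKF6 was -2.42, with a confidence interval of -5.25 to 0.41 that includes no decrease. It was not called (limma, adjusted p = 0.140), but was called under quantile normalization (0.0201) and without OKF6 replicate 2 (0.00172).

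TGFB1 (chromosome 19, 41301587 to 41353922, minus strand), the ligand made by most cells, was at 4.40, 3.00 and 4.53 log2 CPM in OKF6, 4.81, 4.65 and 4.25 in SCC25 +YBX1 and 3.23, 3.00 and 4.18 in SCC15 +YBX1. OKF6 overlapped with both tumour lines, while SCC15 and SCC25 did not overlap. The lines could not be told apart by the test: the largest difference, SCC15 minus SCC25, was -1.10 with a 95% confidence interval of -2.11 to -0.09 (adjusted p = 0.0738). That difference was called when OKF6 was left out of the fit (0.0148), in the fit of the knockdown table (0.0232) and without SCC15 +YBX1 replicate 3 (0.0413). Without OKF6 replicate 2, TGFB1 was also called lower in SCC15 than in OKF6 (adjusted p = 0.0480).

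The signalling receptors were lowest in SCC15. TGFBR2 (chromosome 3, 30606601 to 30694142, plus strand, 7 exons), the receptor that binds the ligand, stood at 7.81, 6.59 and 6.60 log2 CPM in OKF6, 5.81, 5.99 and 6.38 in SCC25 +YBX1 and 2.88, 2.16 and 2.68 in SCC15 +YBX1. All 3 groups were separate, in the order OKF6, SCC25, SCC15. It was 21.5-fold lower in SCC15 than in OKF6 (log2 -4.42 ± 0.35, adjusted p = 2.14e-06) and 11.2-fold lower than in SCC25 (log2 -3.49 ± 0.35, adjusted p = 1.56e-05), and both calls held under every alternative run. SCC25 and OKF6, neighbours in that order, differed by -0.94 ± 0.35 (adjusted p = 0.0651), a difference that was called under quantile normalization (0.0265), with voom weights (0.0435) and without OKF6 replicate 2 (0.0452).

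TGFBR1 (chromosome 9, 99104038 to 99154192, plus strand, 9 exons), its signalling partner, read 6.70, 5.62 and 6.05 log2 CPM in OKF6, 5.24, 4.63 and 4.95 in SCC25 +YBX1 and 4.01, 4.02 and 4.17 in SCC15 +YBX1. The groups kept the order of TGFBR2 and again did not overlap. The level was 4.16-fold lower in SCC15 than in OKF6 (log2 -2.06 ± 0.29, adjusted p = 0.000152) and 2.27-fold lower in SCC25 than in OKF6 (adjusted p = 0.0111, or 0.0549 without SCC25 +YBX1 replicate 2). The step from SCC25 to SCC15 was smaller, at -0.87 ± 0.29 (adjusted p = 0.0321), and was lost in 9 of 15 alternatives, with an adjusted p between 0.00527 and 0.125. Among these were equal medians, quantile normalization, no variance trend, voom weights and the removal of any SCC15 +YBX1 library or of SCC25 +YBX1 replicate 1 or 3.

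The co-receptor TGFBR3 (chromosome 1, 91680343 to 91906335, minus strand, 17 exons) ran the other way, with 1.75, 1.98 and 3.44 log2 CPM in OKF6, 3.36, 3.91 and 3.95 in SCC25 +YBX1 and 5.33, 4.75 and 4.75 in SCC15 +YBX1. SCC15 was above all other +YBX1 and OKF6 libraries, and the highest OKF6 library overlapped with SCC25. The level was 5.86-fold higher in SCC15 than in OKF6 (log2 2.55 ± 0.45, adjusted p = 0.000741), under every alternative run. In SCC25 it was 2.55-fold higher than in OKF6 (adjusted p = 0.0439), but 9 of 14 alternatives lost this call, with an adjusted p up to 0.132, among them the removal of OKF6 replicate 1 or 2 or of any SCC25 +YBX1 library. In SCC15 it was 2.30-fold above SCC25, which just missed the threshold (adjusted p = 0.0518), while 7 of 15 alternatives called it, with OKF6 left out of the fit giving 0.00251.

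**Figure D2:**
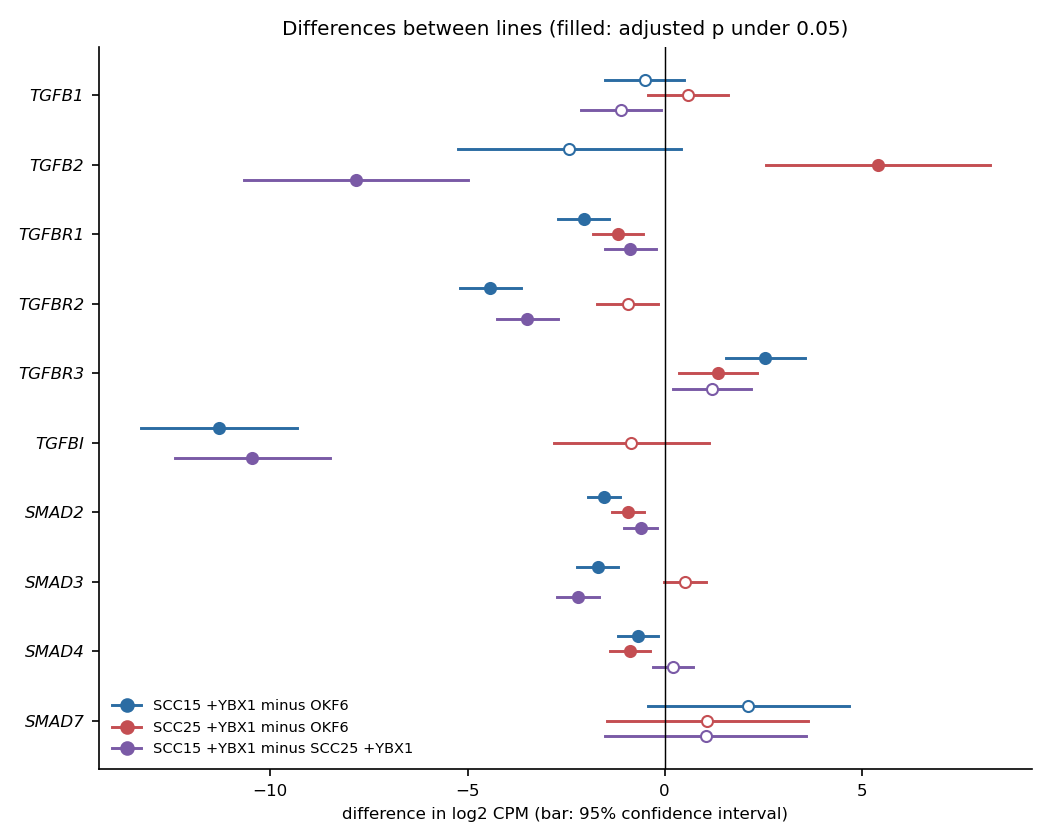
Difference in log2 CPM between lines for each member (horizontal axis), with 95% confidence intervals from limma; filled points passed an adjusted p of 0.05. TGFBI and TGFBR2 lie far to the left for SCC15 against both other lines, TGFBR3 to the right; the SCC15 values of TGFB2 and TGFBI rest on 14 reads or fewer per library.

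Among the signal carriers, SMAD3 separated the tumour lines most. SMAD3 (chromosome 15, 67063763 to 67195173, plus strand, 9 exons) was at 6.17, 6.53 and 6.21 log2 CPM in OKF6, 6.61, 6.90 and 6.92 in SCC25 +YBX1 and 5.01, 4.15 and 4.64 in SCC15 +YBX1. SCC15 was below both other lines, which did not overlap each other either. The level in SCC15 was 3.25-fold under OKF6 (log2 -1.70 ± 0.24, adjusted p = 0.000148) and 4.62-fold under SCC25 (log2 -2.21 ± 0.24, adjusted p = 2.85e-05), and both held in all alternatives. For SCC25 minus OKF6 the value was 0.51 with an interval of -0.02 to 1.04 (adjusted p = 0.135).

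SMAD2 (chromosome 18, 47808957 to 47931146, minus strand, 11 exons), which shares its receptor with SMAD3, stood at 6.07, 6.42 and 6.32 log2 CPM in OKF6, 5.33, 5.32 and 5.37 in SCC25 +YBX1 and 4.66, 4.85 and 4.69 in SCC15 +YBX1. Its groups were separate and stepped down in that order. It was 2.91-fold lower in SCC15 than in OKF6 (adjusted p = 4.75e-05) and 1.91-fold lower in SCC25 than in OKF6 (adjusted p = 0.00394), in all alternatives. Between the tumour lines the step was -0.61 ± 0.19 (adjusted p = 0.0219) and was lost in 7 of 15 alternatives, which were equal medians, quantile normalization and the removal of SCC15 +YBX1 replicate 1 or 3 or of any SCC25 +YBX1 library, with an adjusted p up to 0.134. So SMAD2 was lower in both tumour lines, whereas SMAD3 was called lower in SCC15 alone.

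SMAD4 (chromosome 18, 51028528 to 51085045, plus strand, 12 exons), the common partner, stood at 5.14, 5.24 and 5.63 log2 CPM in OKF6, 4.41, 4.67 and 4.25 in SCC25 +YBX1 and 4.72, 4.63 and 4.65 in SCC15 +YBX1. OKF6 was above both tumour lines, and these overlapped. The level in SCC25 was 1.85-fold lower than in OKF6 (adjusted p = 0.0143), a call lost without SCC25 +YBX1 replicate 1 (0.05003) or 3 (0.0622). In SCC15 it was 1.59-fold lower (adjusted p = 0.0308), a call that 8 of 14 alternatives lost, with an adjusted p up to 0.0968, among them both scalings and the removal of OKF6 replicate 3 or of any SCC15 +YBX1 library. SMAD7 (chromosome 18, 48919853 to 48950965, minus strand), the inhibitor, was thinly covered, with 16, 0 and 20 reads in OKF6, 27, 6 and 8 in SCC25 +YBX1 and 25, 37 and 22 in SCC15 +YBX1. No difference of SMAD7 between lines was called, and the sign of SCC25 minus OKF6 turned from 1.08 to -0.54 without OKF6 replicate 2.

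TGFBI (chromosome 5, 136028988 to 136063818, plus strand, 17 exons), a secreted matrix protein named for its induction by TGF-beta, showed the largest difference of the 10. OKF6 held 10.68, 10.31 and 10.21 log2 CPM and SCC25 +YBX1 9.85, 9.06 and 9.77, while SCC15 +YBX1 held -0.29, -3.57 and 1.16. In reads these are 5647 to 8582 in OKF6, 2704 to 4897 in SCC25 and 4, 0 and 14 in SCC15. The log2 difference of SCC15 was -11.30 ± 0.89 from OKF6 (adjusted p = 2.14e-06) and -10.46 ± 0.89 from SCC25 (adjusted p = 4.98e-06), and it ranged from -12.33 to -9.97 and from -11.48 to -9.12 with each library left out. SCC25 and OKF6 did not overlap but differed by -0.84 with an interval of -2.81 to 1.13 (adjusted p = 0.507). The spread behind this interval is estimated over all 3 lines, and the SCC15 libraries varied between 0 and 14 reads.

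Across the 15 libraries TGFBI ran most like KRT19 (Pearson r 0.996), SERPINB5 (0.995) and S100A2 (0.994), genes known from squamous and simple epithelia, among non-members above the median level of all genes. TGFBR2 was most like DLG1 (0.994), STK24 (0.988) and PRNP (0.987), and SMAD3 most like RBMS2 (0.984), SLC44A1 (0.983) and DKK3 (0.983). TGFBR1 followed WDR1 (0.973), RAP2B (0.967) and UGP2 (0.966), and TGFBR3 followed B4GALT3 (0.942), RPL18 (0.941) and CDC34 (0.937). Among the members, TGFBI and TGFBR2 had an r of 0.953, TGFBI and SMAD3 0.947, TGFBR1 and TGFBR2 0.911, and TGFBR1 and TGFBR3 -0.868. TGFB1 had no close companion, at 0.781 for its nearest gene, NDUFB5. The 15 points come from 3 lines, so an r here mostly restates the order of the lines, and no test is attached to it.

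Most of the known targets of the pathway measured here were lower in SCC15. From a hand-written list of 31 TGF-beta target genes, 30 were in the tables. In SCC15, 20 were lower (66.7%, against 23.4% of all genes) and 4 higher (13.3%, against 26.9%) than in OKF6. The median log2 difference was -2.21. Among the lower genes was THBS1 (thrombospondin 1, -10.48 ± 0.57, adjusted p = 2.63e-07), which had at most 4 reads in SCC15 +YBX1, against up to 2475 in OKF6. Higher in SCC15 were SMAD6, an inhibitory SMAD, at least 21.4-fold, the collagen cross-linking enzyme LOX (4.17 ± 0.95, adjusted p = 0.00384) and the matrix metalloproteinase MMP2 (3.23 ± 0.70, adjusted p = 0.00282). Against SCC25, 27 of the 30 were lower in SCC15 (90%, against 23.6% of all genes), with a median of -2.51. Only SMAD6 was higher (3.40 ± 0.54, adjusted p = 0.000437), beside 20.0% of all genes. In SCC25 against OKF6, 13 genes were higher (43.3%, against 18.9% of all genes), 2 lower (6.67%, against 11.3%) and 15 not called. The median was 1.01, or 0.58 without OKF6 replicate 3. MMP2 (5.96 ± 0.70), LOX (4.13 ± 0.95) and the actin-binding protein TAGLN (3.81 ± 0.57) led the higher genes, and COL7A1 (type VII collagen, -1.83 ± 0.54) and BHLHE40 (a transcriptional repressor, -1.58 ± 0.44) were the lower ones. In OKF6, reads per library were at most 4 for MMP2, 12 for LOX and 20 for TAGLN. The sizes of their differences from OKF6, those of MMP2 and LOX in SCC15 included, are therefore uncertain. Leaving out any library of the groups compared, 18 to 21 of the genes were lower in SCC15 than in OKF6 and 10 to 16 higher in SCC25 than in OKF6. Quantile normalization gave 20 and 10, and equal library medians gave 17 and 12. Against SCC25, the genes lower in SCC15 numbered 23 to 26 with each library left out. They numbered 26 under quantile normalization and under equal library medians. The list was written with earlier results of these data known, and its summary here is a description.

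**Figure D3:**
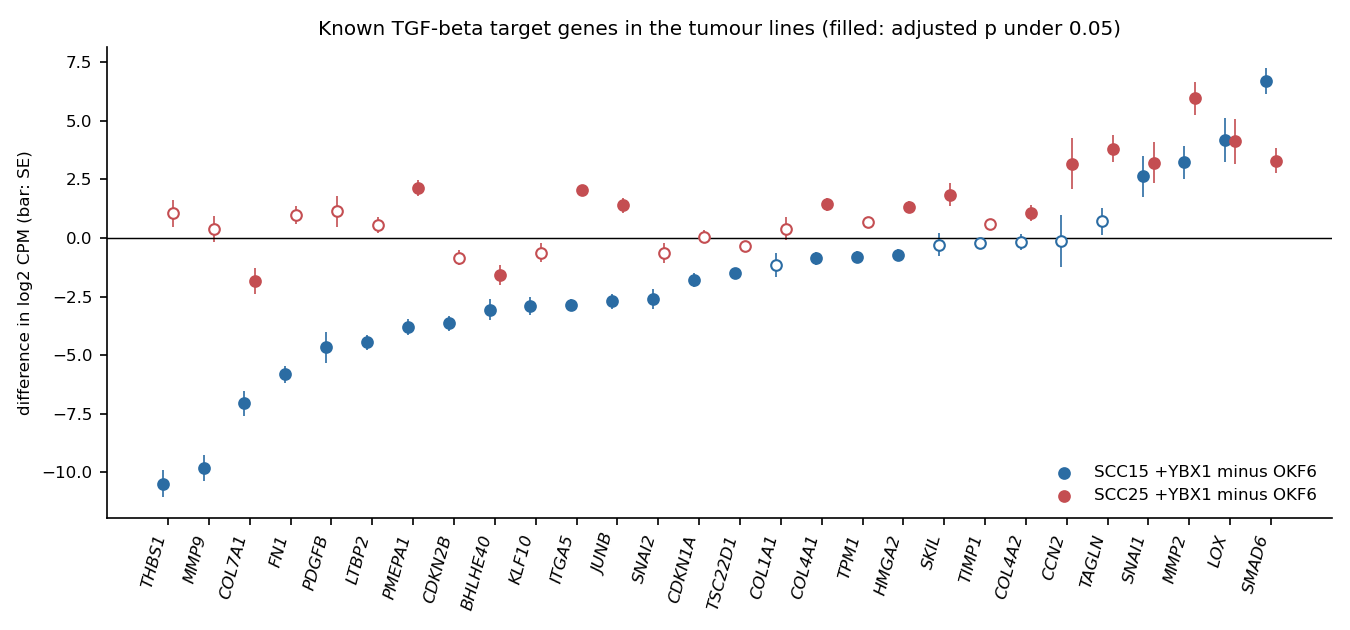
Log2 CPM difference from OKF6 of 28 measured TGF-beta target genes in SCC15 +YBX1 and SCC25 +YBX1, ordered by the SCC15 value; bars are standard errors and filled points passed an adjusted p of 0.05. In SCC15 18 of the genes plotted are filled below 0, and in SCC25 13 are filled above it.

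Genes that store and activate the ligand divided. Of 13 measured, 6 were higher (46.2%, against 26.9% of all genes) and 5 lower (38.5%, against 23.4%) in SCC15 than in OKF6. The median was 0.34, and 1 library could move it. It was 0.03 without OKF6 replicate 1, 0.05 without SCC15 +YBX1 replicate 3 and 0.71 without OKF6 replicate 2. THBS1 and LTBP2 are also in the list of targets. The lower ones included THBS1, which releases latent TGF-beta, the activating integrin subunit ITGB8 (-5.47 ± 0.48, adjusted p = 4.18e-06) and LTBP2, of the latent TGF-beta binding proteins (-4.46 ± 0.34, adjusted p = 1.56e-06). TGFB3, the third ligand, was at least 2.26-fold higher, NRROS, which tethers latent TGF-beta to cells, at least 3.49-fold and the matrix protein FBN1 at least 2.02-fold, each at 3 reads or fewer in every OKF6 library. The same 3 genes were highest in SCC25 against OKF6, at least 2.84-fold, 2.55-fold and 7.05-fold. There 5 of the 13 were higher (38.5%, against 18.9% of all genes) and 2 lower (15.4%, against 11.3%). These 2 were ADAMTS1, a matrix protease, and ITGAV, an integrin subunit. SCC15 against SCC25 gave 1 higher gene (7.69%, against 20.0% of all genes), ADAMTS1 (3.51 ± 0.44, adjusted p = 8.39e-05), and 6 lower (46.2%, against 23.6%).

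Fewer regulators of the receptors and SMADs passed the test. Of 22 measured, 7 were lower (31.8%, against 23.4% of all genes) and 2 higher (9.09%, against 26.9%) in SCC15 than in OKF6. The median was -0.58. CAV1, the main protein of caveolae, which take up TGF-beta receptors, was lowest (-8.20 ± 0.36, adjusted p = 9.20e-08), followed by PMEPA1, a feedback inhibitor of SMAD signalling (-3.81 ± 0.34, adjusted p = 5.26e-06), and the SMAD co-repressor TGIF1 (-3.41 ± 0.42, adjusted p = 5.99e-05). The ubiquitin ligase STUB1 (adjusted p = 0.00642) and the co-repressor SKI (1.03 ± 0.38, adjusted p = 0.0414) were higher, and without any 1 SCC15 +YBX1 library only 1 regulator was. In SCC25, PMEPA1 was instead above OKF6 (2.14 ± 0.34, adjusted p = 0.00111), with SKIL (1.85 ± 0.49) and SKI (1.78 ± 0.38), both SMAD co-repressors, and PMEPA1 and SKIL are in the list of targets too. In this comparison 4 of the 22 were higher (18.2%) and 3 lower (13.6%; LEMD3, WWP1 and TRIM33), shares close to the 18.9% and 11.3% of all genes, and 2 were higher and 0 lower without SCC25 +YBX1 replicate 2. PMEPA1 was also the second lowest of the list in SCC15 against SCC25 (-5.95 ± 0.34, adjusted p = 4.03e-07). There 8 genes were lower (36.4%, against 23.6% of all genes) and 2 higher (9.09%, against 20.0%).

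The related BMP and activin branch held genes on both sides in SCC15. SMAD6, higher in SCC15 than in both other lines, is in this list and in the list of targets. Of 32 genes measured, 14 were higher (43.8%, against 26.9% of all genes) and 10 lower (31.2%, against 23.4%) in SCC15 than in OKF6, with a median of 1.15. The median was 1.25 over 31 genes, leaving out 1 gene at or under 3 reads in both lines. In that median, genes at or under 3 reads in 1 line were set to their bound. Higher were BMP7, a ligand, at least 50.9-fold, the DNA-binding inhibitor ID4 at least 31.7-fold and the BMP-responsive SMAD9 at least 18.5-fold. Lower were INHBA, the activin A subunit, at least 224-fold, the activin antagonist FST (-7.60 ± 0.35, adjusted p = 1.04e-07) and its relative FSTL3 (-3.79 ± 0.45, adjusted p = 4.49e-05). In SCC25 against OKF6, 7 were higher (21.9%) and 2 lower (6.25%), beside 18.9% and 11.3% of all genes. The higher ones were led by BMP7 (at least 15.9-fold), the BMP antagonist GREM1 (at least 6.75-fold) and BMP4 (at least 5.90-fold), and the receptor BMPR2 (-1.01 ± 0.22) and ID1 (-0.84 ± 0.25) were lower. With quantile normalization 3 genes were higher in this comparison. Between the tumour lines 12 were higher (37.5%, against 20.0% of all genes) and 8 lower (25%, close to the 23.6% of all genes) in SCC15.

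The knockdown then asked whether the members change when YBX1 is reduced by doxycycline. Every -YBX1 library received doxycycline and no +YBX1 library did, so the drug and the loss of YBX1 cannot be told apart. In both lines 0 of the 10 passed the threshold (limma, adjusted p under 0.05), 0 had an unadjusted p under 0.05, and the voom alternative also gave 0. Of all genes 0% passed after adjustment, and 2.32% in SCC15 and 3.09% in SCC25 had an unadjusted p under 0.05. The median log2 change of the members was 0.03 in SCC15 and -0.01 in SCC25, beside -0.01 and -0.02 over all genes. The +YBX1 and -YBX1 libraries overlapped for every member in both lines. Replicates with the same number deviated together in both lines, and with the number as a block 0 members passed as well.

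The intervals show what these libraries could have missed. SMAD4 differed by -0.02 (95% confidence interval -0.44 to 0.40) in SCC15 and by 0.00 (-0.42 to 0.42) in SCC25, and SMAD2 by 0.15 (-0.26 to 0.55) and -0.13 (-0.54 to 0.28). SMAD3, at 5.08, 4.52 and 4.45 log2 CPM in SCC15 -YBX1 and 6.66, 7.11 and 6.75 in SCC25 -YBX1, differed by 0.08 (-0.42 to 0.59) and 0.03 (-0.48 to 0.54). With the replicate number as a block the SMAD3 intervals were -0.44 to 0.61 and -0.50 to 0.56.

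The receptors were less tightly bounded. TGFBR2 read 2.77, 2.47 and 2.77 log2 CPM in SCC15 -YBX1 and 6.41, 4.85 and 6.14 in SCC25 -YBX1, a change of 0.10 (-0.66 to 0.86) and -0.26 (-1.02 to 0.50). The low SCC25 value is replicate 2, the library in which the 10 most abundant genes took 16.2% of reads, and without it the change turned to 0.22. TGFBR1 differed by -0.24 (-0.83 to 0.34) and 0.25 (-0.33 to 0.84), with same-numbered pairs of SCC25 at 0.38, 0.04 and 0.33. TGFBR3, at 3.56, 4.53 and 4.46 log2 CPM in SCC25 -YBX1, had pair differences of 0.21, 0.62 and 0.51 in SCC25, and its estimate of 0.44 had an interval of -0.22 to 1.104.

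TGFBI, TGFB2 and SMAD7 had the widest intervals, and TGFB1 came next. TGFB1 stood at 4.01, 4.35 and 3.84 log2 CPM in SCC15 -YBX1 and 4.15, 5.42 and 4.06 in SCC25 -YBX1, differing by 0.59 (-0.22 to 1.41) and -0.03 (-0.84 to 0.78). TGFB2 had 73.6, 20.1 and 42.8 CPM in SCC25 -YBX1 and 47.1, 37.5 and 82.4 in SCC25 +YBX1, a log2 change of -0.40 (-1.81 to 1.01). In SCC15 it had 3, 3 and 4 reads after doxycycline and 1, 3 and 0 before, so no fold is given. TGFBI in SCC25 -YBX1 stayed at 9.99, 9.27 and 9.52, a change of 0.04 (-1.97 to 2.04), and had 4, 1 and 0 reads in SCC15 -YBX1. The spread behind this interval is estimated over both lines. The SD of TGFBI was 2.42 in SCC15 +YBX1 and 1.53 in SCC15 -YBX1, but 0.43 in SCC25 +YBX1 and 0.37 in SCC25 -YBX1. Same-numbered pairs of SCC25 differed by 0.14, 0.21 and -0.25, so the interval overstates the spread within SCC25. SMAD7 differed by -0.67 (-1.85 to 0.51) in SCC15 and -0.06 (-1.24 to 1.12) in SCC25, on 37 reads or fewer per library. With and without doxycycline, all 6 SCC15 libraries lay below all 9 other libraries in TGFBR1, TGFBR2, TGFBI, SMAD2 and SMAD3, and above all OKF6 libraries in TGFBR3.

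The difference between the lines in the effect of the knockdown was tested as an interaction. For 0 of the 10 members did it pass the threshold (limma, adjusted p 1.00 for each), 0 had an unadjusted p under 0.05, and 2.26% of all genes did. Around the members, 0 genes of the 4 lists passed in either line. At an unadjusted p under 0.05 stood 0 of 30 target genes in both lines, 1 of 13 storage and activation genes in SCC15 and 0 in SCC25, 0 of 22 regulators in both, and 1 of 32 BMP and activin genes in each.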

How the data were processed

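The authors prepared QuantSeq 3′ FWD libraries and processed the single-end reads with Cutadapt, HISAT2 (hg38), featureCounts and limma. The deposited log2 values are log2 CPM (0.5 reads added) over a normalized library size, in a table of the lines and a table of the knockdown, after a gene filter that was not undone. Reads were recovered from them and were whole numbers for 100% of values (tolerance 0.1 read). The 6 libraries in both tables differ by at most 5e-08. Groups came from the labels.

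Each table was fitted whole, with all its genes and groups, in limma 3.58.1 (R 4.3.3; lmFit and trended eBayes). Tests were two-sided and p-values were adjusted over all genes by Benjamini-Hochberg, at a threshold of 0.05. The code was tested on simulated reads. Same-numbered libraries deviated together in the knockdown, with correlations of 0.498, 0.312 and 0.117 in SCC15 and 0.135, 0.470 and 0.425 in SCC25 over 6497 genes; this pairing rests on the data and the labels' replicate numbers.

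The members and gene lists were chosen with earlier results of these data known. Named genes were the members, YBX1, per list and comparison the 3 highest and 3 lowest that passed, and the 3 genes most like a member. A few results that the rule would name are not reported here. Alternatives were a replicate block, only the groups compared, 2 scalings, no variance trend, an expression filter, 2 reads added, voom weights, the knockdown table for the tumour lines, each library left out, and, for motifs, the upstream bases alone; those on the lists were added after seeing the data. Floors cover counting error only, and ranges with each library left out cover the spread between these libraries only. Gene positions are from GENCODE release 44 (GRCh38), and all 10 members matched RefSeq promoter entries. In the last 500 bases of their canonical transcripts 0 other annotated genes overlapped. Plots used matplotlib 3.10.9 (Python 3.11.15).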

Additional observations from a re-analysis of the deposited data

How the results depend on the processing

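Of 424 recomputed differences of members between lines, 371 kept their direction and their side of the threshold, 36 lost a call, 16 gained one and 1 turned. Called members in SCC25 against OKF6 fell from 5 to 3 without any 1 SCC25 +YBX1 library and ranged from 3 to 5 over the libraries left out. In the line comparisons the correlations of same-numbered libraries were of mixed sign, from -0.198 to 0.264. The replicate block, tried there too, gave 6, 4 and 6 members in place of 7, 5 and 6. With the paired libraries of the knockdown it gave 0 in both lines and changed no other call. SMAD7 in SCC25 against OKF6 ranged from -0.54 to 1.93 with each library left out. Small list counts moved too: with each library left out, lower target genes in SCC25 against OKF6 numbered 0 to 3 (0 without SCC25 +YBX1 replicate 3), lower storage genes 1 to 3, lower BMP and activin genes 1 to 3, and regulators 2 to 6 higher and 0 to 4 lower; for SCC15 against SCC25, 0 to 2 regulators were higher and 5 to 6 lower, and quantile normalization gave 4 higher.

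In the knockdown 0 members were called under any alternative, while 25 of 276 values changed sign. SMAD4 in SCC25 turned to -0.0052 with equal medians and to -0.00044 with quantile normalization. With each library left out, the log2 change in SCC15 ranged from -0.11 to 0.25 for TGFBR2, -0.23 to 0.16 for TGFBR3, -0.14 to 0.29 for SMAD3 and -0.044 to 0.0099 for SMAD4. In SCC25 it ranged from -0.47 to 0.21 for TGFB1, -0.84 to 0.093 for TGFB2, -0.57 to 0.22 for TGFBR2, -0.21 to 0.20 for TGFBI, -0.11 to 0.12 for SMAD3, -0.14 to 0.12 for SMAD4 and -0.48 to 0.53 for SMAD7. The causes were not tested. In the upstream bases alone, 3.81% of promoters held the Y box, 32% CCAAT, 13.6% CAGACA, 4.2% TGACTCA and 10.7% TATAAA. Depth limits TGFB2 and TGFBI in SCC15 and SMAD7 throughout.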
